A study of Mus musculus with 6 samples.

Results

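Cytoplasmic ribosomal protein genes encode the proteins of the small and the large ribosomal subunit. Their promoters were examined in ATAC-seq peak lists from mouse spermatogonia with and without the deacetylase SIRT7. Members were the protein-coding genes with a mouse symbol of Rpl or Rps and a number, with an optional letter or final l, together with Rplp0, Rplp1, Rplp2 and Rpsa. Kinases named Rps6k and pseudogenes were left out. The rule found 82 genes among the 21440 protein-coding genes whose 5′ end could be placed, 51 of the large subunit and 31 of the small subunit. They lay on 19 chromosomes, with 14 on chromosome 7 and 4 on the X chromosome.

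ATAC-seq uses the Tn5 transposase to cut open chromatin, so that accessible sites gather fragments and are called as peaks. Spermatogonia, the germ cells of the testis that divide by mitosis, were taken on postnatal day 5, with 50000 cells per sample. The S7KO group held 3 libraries from mice with both copies of Sirt7 deleted (Sirt7-/-), and the WT group 3 libraries from wild-type mice, on the inbred background of the study's colony and with no treatment named. Replicates carry the numbers 1, 2 and 4 from the sample titles, a second label numbers some of them otherwise, and lists of 3 values below run in that order. Cells were enriched by differential plating, in which somatic cells attach and germ cells stay in the supernatant. A promoter peak was found in all 6 libraries at 10 of 10 spermatogonia marker genes, at 6 of 6 Sertoli cell markers, at 4 of 5 myoid and stroma markers, at 2 of 5 Leydig cell markers and at 1 of 4 blood cell markers. Ptprc, Adgre1, Hbb-bs, Hsd3b1 and Insl3 had no peak in any library. Among the other Leydig cell markers, Cyp11a1 had a peak in the top 3.91% of the lists on average. The peak of Cyp17a1 lay only in the top 78.6%, and that of Star, found in 5 libraries, in the top 55.0%. Promoter peaks thus did not tell germ cells from Sertoli cells or from myoid and stroma cells here.

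The lists held from 105728 to 133663 peaks on chromosomes 1 to 19, X and Y. Sequencing depth was not given. The background coverage recovered from the peak values, a relative estimate of depth, was lowest in WT replicate 2 at 2.92 and lay between 4.72 and 6.03 in the other 5 libraries. The targeted gene gave no check of the labels, since Sirt7 had a promoter peak in all 6 libraries, from 1212 to 2113 bp wide. In cell populations, a promoter open in fewer cells and a promoter less open in each cell cannot be told apart.

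Ribosomal protein genes are among the most highly transcribed genes of growing cells, and most of their products are needed in equal numbers for each ribosome. Many of their transcripts begin with a C followed by a run of pyrimidines, the terminal oligopyrimidine (TOP) tract, through which their translation is set by growth signals. SIRT7 is known as a nucleolar deacetylase that acts on ribosomal DNA transcription. Several ribosomal proteins have a paralog with a symbol ending in l. Rpl10l, Rpl36al and Rpl39l are autosomal copies of X-linked genes, and Rpl10l and Rpl39l are used in the male germ line, where the X chromosome is silenced during meiosis.

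Sequence around the start was taken from the RefSeq promoter table of GRCm38.p6, which had windows for 62 of the 82 members. The stretches printed here run from 60 bases before the transcription start to 20 bases from it, on the strand of the gene, and capitals mark the longest pyrimidine run of at least 5 bases beginning with a C within 10 bases of the start. The following 5 were chosen because Rps19 and Rpl37 had some of the strongest promoter peaks, and Rplp2, Rps12 and Rps10 were among the genes with the largest decreases in width in S7KO.
Rps19, chr7:24884532-24884611, plus strand: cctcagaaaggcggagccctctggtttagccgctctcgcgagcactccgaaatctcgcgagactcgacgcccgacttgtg
Rpl37, chr15:5116553-5116632, plus strand: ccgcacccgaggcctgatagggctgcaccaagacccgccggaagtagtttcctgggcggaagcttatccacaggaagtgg
Rplp2, chr7:141447591-141447670, plus strand: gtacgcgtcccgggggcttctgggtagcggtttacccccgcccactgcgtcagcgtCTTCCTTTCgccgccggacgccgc
Rps12, chr10:23787190-23787269, minus strand: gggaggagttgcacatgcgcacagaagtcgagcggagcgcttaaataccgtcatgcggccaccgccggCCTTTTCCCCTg
Rps10, chr17:27635225-27635304, minus strand: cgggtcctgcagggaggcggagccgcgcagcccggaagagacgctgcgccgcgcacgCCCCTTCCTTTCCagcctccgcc

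No run of this kind was present in these stretches of Rps19 and Rpl37, although another of the 3 annotated Rps19 starts held CTCTCCC, whereas Rps10 held CCCCTTCCTTTCC, Rps12 CCTTTTCCCCT and Rplp2 CTTCCTTTC. In windows of 300 bases, from 250 before the start to 50 from it, 39 of 62 members had such a run in at least 1 window (62.9%), compared with 34.9% of 17492 protein-coding genes and 36.7% of the 12218 of those genes with a peak in all 6 libraries. The ETS-type motif CCGGAAG, searched on both strands, was held by 25 of 62 members (40.3%), compared with 12.95% of all genes and 17.5% of those with a peak. AAGATGG, the core of the YY1 motif, was held by 9 members (14.5%), compared with 7.18% and 7.69%. Among 69 mitochondrial ribosomal protein genes these shares were 37.7% for CCGGAAG, 18.8% for AAGATGG and 44.9% for the pyrimidine run. The last 3 letters of CCGGAAG are the first 3 of AAGATGG, so that a run of letters can hold both. The GC box GGGCGG was held by 37 members (59.7%), compared with 49.2% and 66.6%. TATAAA, searched on the strand of the gene, was held by 6 members (9.68%), compared with 9.82% and 5.70%. These matches describe letters in a window and are not binding sites. The ratio of observed to expected CpG had a median of 0.863 in the members, 0.564 in all genes and 0.723 in genes with a peak, with GC contents of 56.8%, 56.3% and 60.5%. The lowest ratios among members were those of Rpl3l, 0.0892 and 0.134 at its 2 starts.

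To ask whether these promoters were accessible in both genotypes, a peak was looked for within 1 kb of each start. It was present in all 6 libraries at 80 of 82 members, or 97.6%, and at 15129 of 21440 protein-coding genes, or 70.6%. The other 2 members had no peak within 1 kb in any library, and no member was called in some libraries only. No member had a peak in 3 of 3 S7KO and 0 of 3 WT libraries, a pattern seen at 6 protein-coding genes (0.028%), or the reverse pattern, seen at 1 gene (0.00466%). At 78 of the 80 genes the peak covered the start in every library. The 2 exceptions were Rpl29 and Rpl3l. A call within 1 kb was thus present or absent in the same members in S7KO and WT.

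The 2 members without a peak were Rpl17 and Rpl32l. Rpl17, a large subunit protein at the exit tunnel for the nascent chain, had no start in the promoter table, and the 5′ end of its gene record was used. A peak of 939 to 981 bp lay 1005 to 1031 bp downstream of that end in all 6 libraries, just past the limit. Rpl32l, on chromosome 10, had no peak over its gene record in any library, and the nearest peak lay 2547 to 2742 bp upstream. Neither gene differed between genotypes in this respect.

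Promoter peaks of the members were compact. The median width over the members was 1203.5, 1218.5 and 1196.5 bp in S7KO and 1230, 1116.5 and 1211.5 bp in WT replicates 1, 2 and 4. Over all genes with a peak, medians ran from 1330 to 1455 bp. The members' median was below that of all genes in each of the 6 libraries. Peak strength was given as the rank of a peak by −log10 q within its own list, in percent, where 100 is the weakest. The members' median rank was 3.77%, 3.24% and 2.68% in S7KO and 3.62%, 3.96% and 2.99% in WT. Medians over all genes with a peak ran from 7.26% to 9.38%. By mean rank, 52 of the 80 members (65.0%) and 36.3% of all genes lay in the top 5% of their lists. By fold enrichment, the ratio of fragment pileup to local background at a peak, the members' median ran from 5.44 to 6.01 and that of all genes from 4.74 to 4.89.

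**Figure D1:**
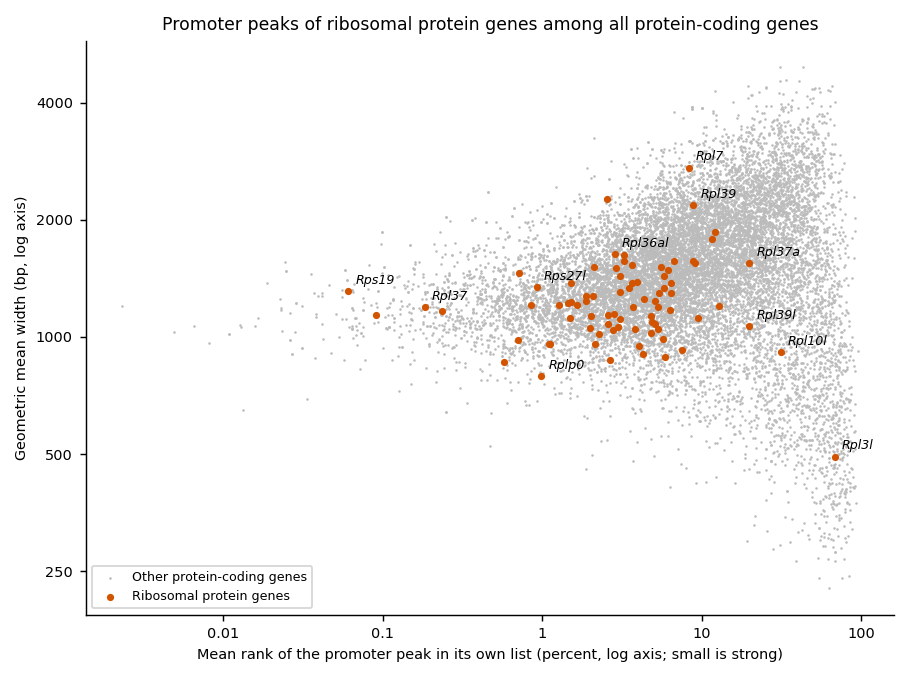
Geometric mean width (bp) of the promoter peak against its mean rank by −log10 q (percent of the list), both on log axes, for 15129 protein-coding genes with a peak in 6 libraries. Orange points are 80 ribosomal protein genes, most of which lie at low rank and near 1200 bp, while Rpl3l, Rpl10l, Rpl37a and Rpl39l lie to the right at weak rank.

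Genes of related function are given side by side with the members. The 76 mitochondrial ribosomal protein genes with a peak in all 6 libraries, of 78, had a median width of 1213 bp and a median rank of 3.78%, compared with 1209 bp and 3.38% in the members. Among 22 genes of ribosome biogenesis and RNA polymerase I, all with a peak, the medians were 1229 bp and 3.41%. The 14 translation factors, which include Eef1a1 and Eef2, had a median width of 1519 bp and a median rank of 3.94%. The 5 ribosomal protein genes outside the rule, which include Rps3a1 and Fau, each had a peak in all 6 libraries, with a median of 1045 bp and 3.20%. No gene of these 4 lists passed the test of width or of rank between genotypes.

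Strength differed widely among the members. Rps19, which is mutated in Diamond-Blackfan anaemia, ranked at 0.0534%, 0.0539% and 0.0165% in S7KO and at 0.0328%, 0.197% and 0.0112% in WT. It was the strongest member by mean rank and was weakest in WT replicate 2, the shallowest library. Rpl37, a large subunit protein, ranked at 0.353%, 0.122% and 0.188% in S7KO and at 0.0984%, 0.116% and 0.218% in WT. In both genes the genotypes overlapped. At the other end, Rpl37a ranked at 29.6%, 18.1% and 14.8% in S7KO and at 20.1%, 21.8% and 14.9% in WT, the weakest peak of a member other than an l paralog.

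The widest peaks kept their width across the libraries. Rpl7, a large subunit protein, had the widest peak, with 2844, 2753 and 2699 bp in S7KO and 2706, 2650 and 2690 bp in WT. This peak also held the start of Rdh10, which encodes a retinol dehydrogenase. Rpl41, the shortest ribosomal protein, followed at 2283, 2285 and 2244 bp in S7KO and 2239, 2311 and 2245 bp in WT. Rpl39, another protein of the exit tunnel, had 2182, 2173 and 2198 bp in S7KO and 2180, 2172 and 2157 bp in WT. The lowest and highest of these 6 Rpl39 widths differed by a factor of 1.02. The peaks were not centred on the start. That of Rpl7 reached a median of 2244 bp upstream and 476.5 bp downstream, whereas Rpl41 reached 325.5 bp upstream and 1936 bp downstream and Rpl39 600 bp upstream and 1574 bp downstream. X-linked Rps4x, also among the 5 widest, ranged from 1740 to 1810 bp.

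The narrowest peaks belonged to Rpl3l, Rplp0, Rps2, Rps28 and Rpl23a. Rplp0, Rplp1 and Rplp2 form the P stalk, which recruits elongation factors to the ribosome. Rplp0 had 755, 866 and 767 bp in S7KO and 858, 742 and 771 bp in WT. Rplp1 had 942, 935 and 930 bp in S7KO and 1077, 927 and 961 bp in WT. All 3 stalk genes were no wider than 1077 bp in any library and ranked within the top 1.76%. Rps2, at the mRNA entry of the small subunit, ranged from 770 to 905 bp and Rpl23a, at the mouth of the exit tunnel, from 850 to 908 bp. Rpsa, the laminin receptor homologue of the small subunit, lay near the members' median with 1107, 1083 and 1147 bp in S7KO and 1231, 1023 and 1212 bp in WT.

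**Figure D2:**
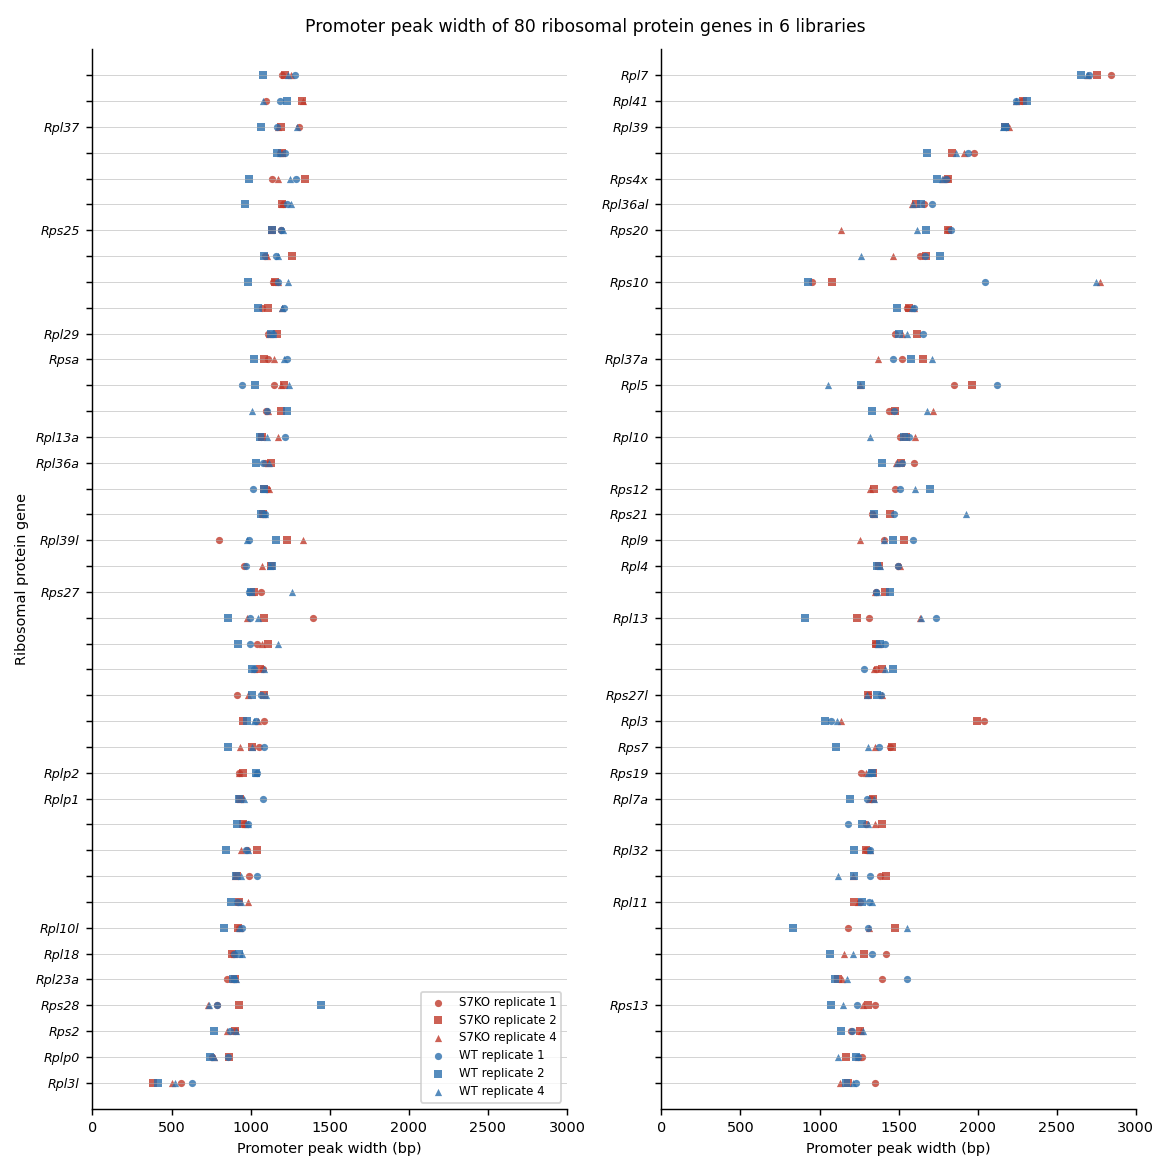
Width (bp) of the promoter peak of 80 ribosomal protein genes, ordered by geometric mean from the lower left to the upper right. Genes named in the text are labelled, and each gene has 6 points, red for S7KO and blue for WT, with the shape giving the replicate number; most genes keep their place in all libraries, and Rpl3, Rps10, Rpl5, Rps20 and Rps28 show 1 or more points apart.

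Medians of the subunits lay close together. The 49 large subunit genes with a peak had a median width of 1209 bp and a median rank of 3.64%, and the 31 small subunit genes 1193 bp and 3.24%. The 4 X-linked genes, Rpl10, Rpl36a, Rpl39 and Rps4x, had a median of 1647 bp, from 1093 to 2177 bp, and a median rank of 6.88%, compared with 1206 bp and 3.25% in the 76 autosomal members. With 4 genes this difference was described and not tested. In 20 of the 80 members the peak held the start of another gene in all 6 libraries, as did the peaks of 3313 of 15129 genes. Partners included Trappc4 at Rps25, Lias at Rpl9, Zwilch at Rpl4 and Med22 at Rpl7a. Members with such a partner had a median width of 1263 bp and a median rank of 2.87%, and the other 60 had 1206 bp and 3.69%. In all genes the corresponding ranks were 4.17% with and 9.64% without a partner. A width or rank in a shared peak belongs to both genes.

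The second question was whether the l paralogs, some of which serve later germ cells or other tissues, had promoters like those of their parents. The stretches of 4 such pairs are printed for comparison, along with Rpl3l and Rpl32l, whose parents had no window in the table. Coordinates follow GRCm38, and capitals mark the pyrimidine run as above.
Rpl10, chrX:74270756-74270835, plus strand: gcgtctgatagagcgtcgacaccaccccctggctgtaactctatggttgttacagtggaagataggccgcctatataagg
Rpl10l, chr12:66284382-66284461, minus strand: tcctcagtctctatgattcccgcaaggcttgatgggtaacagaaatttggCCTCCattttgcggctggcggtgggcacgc
Rpl36a, chrX:134585594-134585673, plus strand: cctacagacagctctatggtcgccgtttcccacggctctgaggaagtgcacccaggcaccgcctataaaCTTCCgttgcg
Rpl36al, chr12:69184048-69184127, minus strand: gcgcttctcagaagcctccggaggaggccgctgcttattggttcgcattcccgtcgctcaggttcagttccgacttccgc
Rpl39, chrX:37085203-37085282, minus strand: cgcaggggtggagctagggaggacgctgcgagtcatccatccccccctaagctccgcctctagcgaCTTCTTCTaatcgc
Rpl39l, chr16:10170168-10170247, plus strand: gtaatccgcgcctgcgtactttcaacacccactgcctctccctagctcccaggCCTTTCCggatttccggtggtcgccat
Rps27, chr3:90213629-90213708, minus strand: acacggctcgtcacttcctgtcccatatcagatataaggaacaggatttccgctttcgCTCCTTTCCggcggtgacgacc
Rps27l, chr9:66946026-66946105, plus strand: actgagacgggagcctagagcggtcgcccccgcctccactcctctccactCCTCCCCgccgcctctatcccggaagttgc
Rpl3l, chr17:24727766-24727845, plus strand: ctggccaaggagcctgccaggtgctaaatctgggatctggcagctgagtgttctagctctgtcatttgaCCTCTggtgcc
Rpl32l, chr10:20208379-20208458, plus strand: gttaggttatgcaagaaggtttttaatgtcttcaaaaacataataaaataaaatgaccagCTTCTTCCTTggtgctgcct

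Of the 6 l paralogs, 5 had a peak in all 6 libraries, and Rpl32l had none. All 6 parents had one. By −log10 q, 2 of the 5 ranked ahead of their parents and 3 behind. Rps27l, a gene induced by p53, ranked at 0.950%, 0.645% and 0.838% in S7KO and at 1.03%, 1.48% and 0.613% in WT. Its parent Rps27, a small subunit protein, ranked at 1.80%, 1.57% and 1.36% in S7KO and at 1.10%, 3.21% and 2.98% in WT. Rps27l thus ranked above its parent by −log10 q in 6 of 6 libraries, but by fold enrichment Rps27 was higher in 5 of 6, with 6.73 to 7.98 compared with 6.999 to 7.58 for Rps27l. Rpl36al ranked at 3.31%, 2.11% and 2.17% in S7KO and at 3.38%, 3.96% and 2.14% in WT. X-linked Rpl36a ranked at 4.41%, 4.70% and 4.65% in S7KO and at 5.83%, 4.93% and 4.82% in WT, behind its copy in 6 of 6 libraries. Fold enrichment gave the opposite order in 6 of 6 libraries, with 5.76 to 6.60 for Rpl36a and 4.70 to 5.26 for Rpl36al. The peak of Rpl36al also held the start of Mgat2, an enzyme of N-glycan synthesis, in each library, and was wider than that of Rpl36a, with 1582 to 1708 bp compared with 1034 to 1128 bp.

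The other 3 paralogs ranked below their parents by −log10 q in 6 of 6 libraries. Rpl10l ranked at 25.8%, 37.7% and 27.9% in S7KO and at 34.3%, 25.5% and 36.0% in WT. Its X-linked parent Rpl10, a protein of the large subunit that joins late in assembly, ranked at 1.98%, 1.85% and 2.78% in S7KO and at 2.90%, 1.69% and 1.44% in WT. The peak of Rpl10l was from 833 to 947 bp wide and that of Rpl10 from 1321 to 1605 bp, with no overlap. Fold enrichment was also lower for Rpl10l in 6 of 6 libraries, at 4.46 to 5.65 compared with 5.67 to 7.08. Rpl39l ranked at 15.6%, 21.6% and 21.8% in S7KO and at 15.4%, 25.9% and 18.5% in WT. X-linked Rpl39 ranked from 6.75% to 10.2%. Rpl39l was also narrower, with 797, 1230 and 1333 bp in S7KO and 989, 1162 and 977 bp in WT. Its fold enrichment was higher than that of Rpl39 in 6 of 6 libraries, at 5.17 to 6.72 compared with 3.96 to 4.87. Among the copies of X-linked genes, Rpl10l was thus weaker than its parent by both measures, whereas the order of Rpl39l and Rpl36al turned with the measure.

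Rpl3l, whose product replaces RPL3 in striated muscle, had the weakest and narrowest peak of all members. It ranked at 60.7%, 69.8% and 57.5% in S7KO and at 50.7%, 86.7% and 83.1% in WT. Its width was 557, 381 and 500 bp in S7KO and 632, 413 and 519 bp in WT. The peak began 318 to 412 bp downstream of the start in the 6 libraries and did not cover it. Its parent Rpl3, at the peptidyl transferase centre, ranked from 2.70% to 4.82%. By fold enrichment Rpl3l lay below Rpl3 in 6 of 6 libraries, at 1.86 to 2.52 compared with 5.66 to 6.91. Over the 5 pairs with both peaks, the l paralog ranked on average 20.3 percentage points behind its parent by −log10 q and 18.3 by fold enrichment. Rpl3l carried much of both values. By −log10 q, the value was 9.23 points over the other 4 pairs when the peak had to cover the start. Mean rank by fold enrichment was 95.3% for Rpl3l and 6.44% for Rpl3. It was 19.3% for Rpl10l and 8.63% for Rpl10, and 21.2% for Rpl36al and 8.51% for Rpl36a. Rps27l lay at 2.91% and Rps27 at 2.59%. Rpl39l went the other way, at 10.6% compared with 31.4% for Rpl39. None of the 5 l paralogs passed the test of width or rank between genotypes.

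**Figure D3:**
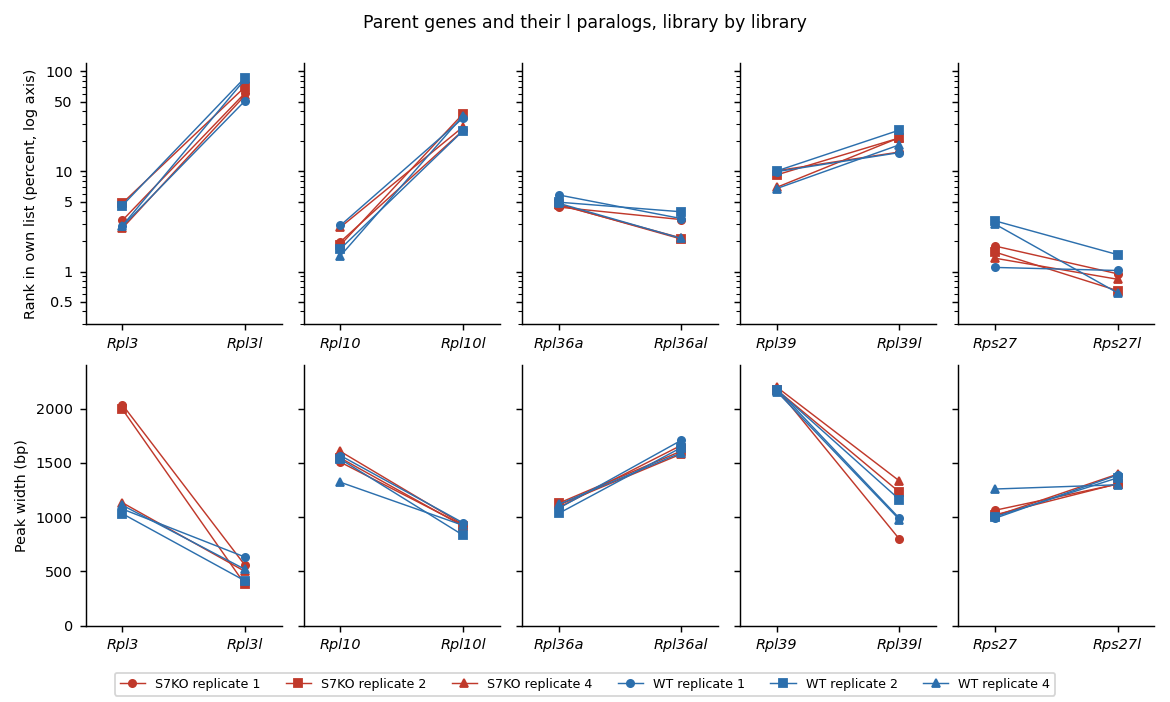
Rank of the promoter peak by −log10 q in its own list (percent, log axis, upper row) and width (bp, lower row) for 5 parent genes and their l paralogs. Each line joins the pair within 1 of 6 libraries, red for S7KO and blue for WT; by −log10 q, Rpl36al and Rps27l rank ahead of their parents in 6 of 6 libraries, and Rpl3l, Rpl10l and Rpl39l behind theirs, an order that fold enrichment turns for Rpl36al and Rpl39l in 6 of 6 libraries and for Rps27l in 5.

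To ask whether loss of SIRT7 altered these promoters, log2 width was compared between S7KO and WT by limma over all 15129 genes with a peak in 6 libraries. None of the 80 members passed an adjusted p of 0.05 (Benjamini-Hochberg), while 17 genes did (0.112%), 14 wider and 3 narrower in S7KO. At an unadjusted p under 0.05 there were 4 members and 503 genes. The members' median log2 difference was 0.02, and that of all genes was 0.02. Differences ran from -0.29 to 0.63, with 74 of 80 members within 0.2 of 0 and a median SE of 0.07. By library, the members' median width averaged 1206 ± 11.2 bp over the S7KO libraries and 1186 ± 60.9 bp over the WT libraries (SD, n = 3 each), a difference of 20.2 bp that was smaller than the WT spread and that turned to -14.6 bp without WT replicate 2.

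The widths of single members were then examined for separation of the genotypes. In 2 members every S7KO library was wider than every WT library, a pattern seen in 6.87% of all genes. In 4 members every S7KO library was narrower, a pattern seen in 1.67% of genes. Leaving out a library can only keep or raise such a count, since fewer values have to separate. Counts without 1 library therefore do not show how firm these counts are. No difference from the shares of all genes is read from the counts. The 4 narrower genes were Rpl11, Rpl18, Rplp2 and Rps12, and the 2 wider genes Rpl3 and Rps13.

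Rpl3 had the largest difference. Its width was 2037, 1995 and 1133 bp in S7KO and 1075, 1032 and 1110 bp in WT. The log2 difference was 0.63 (SE 0.24, limma adjusted p = 0.984). S7KO replicate 4 lay close to the WT libraries and well below the other S7KO libraries. The added width in S7KO replicates 1 and 2 was downstream of the start, where the peak reached 1406 and 1364 bp, compared with 399 to 474 bp in the other 4 libraries. In WT replicate 2 a separate peak was called in that downstream stretch. With it, 1193 bp were called over the joint span of all libraries, compared with 1032 bp for the promoter peak alone. Without S7KO replicate 4, the S7KO library that differed from the others here, the log2 difference was 0.91 and the limma adjusted p was 0.0198. That fit called 43 genes for width. It gave the only call of a member for width or rank when a library was left out.

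Rplp2, of the P stalk, had 924, 954 and 924 bp in S7KO and 1040, 1032 and 1032 bp in WT. All 3 S7KO values lay below all 3 WT values, with means of 934 ± 17.3 and 1035 ± 4.62 bp (SD, n = 3 per genotype). The log2 difference was -0.15 (SE 0.03, limma adjusted p = 0.984). Rps12, a small subunit protein, had 1476, 1344 and 1322 bp in S7KO and 1511, 1701 and 1603 bp in WT, with a log2 difference of -0.22 (SE 0.07, limma adjusted p = 0.984). In Rps12 as in Rplp2 the genotypes did not overlap. Rps13, another small subunit protein, had 1348, 1307 and 1273 bp in S7KO and 1235, 1071 and 1148 bp in WT, with a log2 difference of 0.19 (SE 0.06, limma adjusted p = 0.984). These and Rpl3 were the 4 members with an unadjusted p under 0.05, and none passed the adjustment over all genes.

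**Figure D4:**
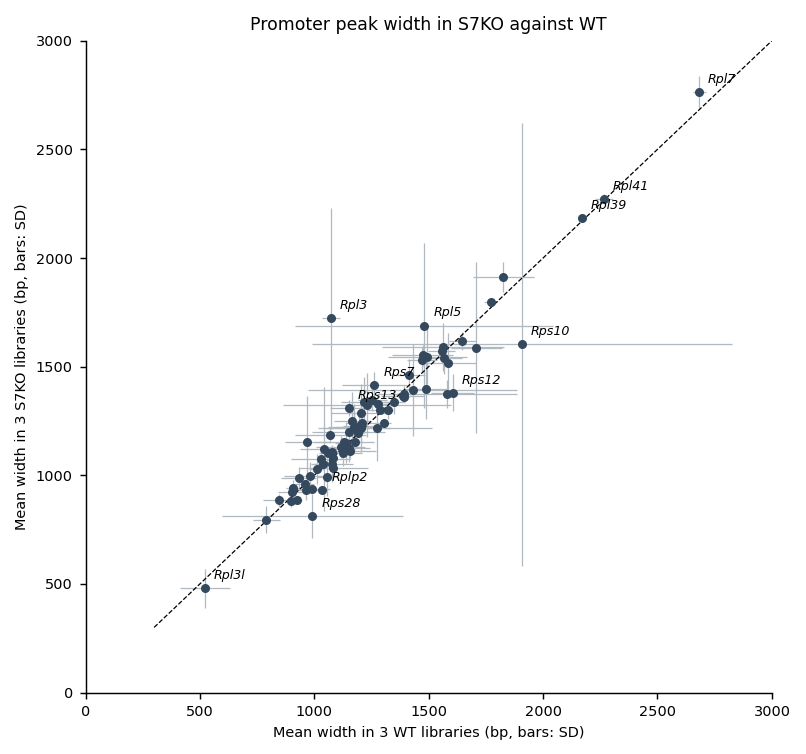
Mean promoter peak width (bp) of 80 ribosomal protein genes in 3 S7KO libraries against 3 WT libraries, with bars for the SD of each group and a dashed line of equal width. Most genes lie near the line; Rpl3 lies above it at 1722 and 1072 bp, and Rps10 has the longest bars.

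Rpl5 and Rpl11 form the 5S ribonucleoprotein particle with 5S rRNA, which can bind MDM2 when ribosome assembly fails. Rpl11 had 1254, 1220 and 1242 bp in S7KO and 1312, 1269 and 1332 bp in WT, without overlap and with a log2 difference of -0.07 (SE 0.03, limma adjusted p = 0.984). Rpl5 had 1852, 1961 and 1255 bp in S7KO and 2120, 1265 and 1056 bp in WT. The genotypes of Rpl5 overlapped, and each held wide and narrow peaks. The 9 genes of a Diamond-Blackfan anaemia list had a median width of 1310 bp, and none was called.

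In 10 of the 80 members (12.5%) the widest library exceeded the narrowest by a factor over 1.5, compared with 16.4% of all genes. Rps10 varied most, with 953, 1078 and 2776 bp in S7KO and 2049, 926 and 2749 bp in WT. The wide calls of Rps10 reached 1608 to 2320 bp upstream, and the narrow calls 502 to 527 bp. In S7KO replicates 1 and 2 a separate peak was called in that upstream stretch, and in WT replicate 2 none was. Rps28, a small subunit protein, had 787, 926 and 728 bp in S7KO and 790, 1447 and 739 bp in WT, so that only WT replicate 2 was wide. Rps20 was narrow in S7KO replicate 4 alone, at 1133 bp compared with 1618 to 1832 bp elsewhere. In Rpl5, Rps10 and Rps20 it was mainly the upstream edge that moved, and in Rpl3, Rpl13 and Rps28 the downstream edge. Apart from Rpl3, the genotypes overlapped in each of these 10 genes.

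**Figure D5:**
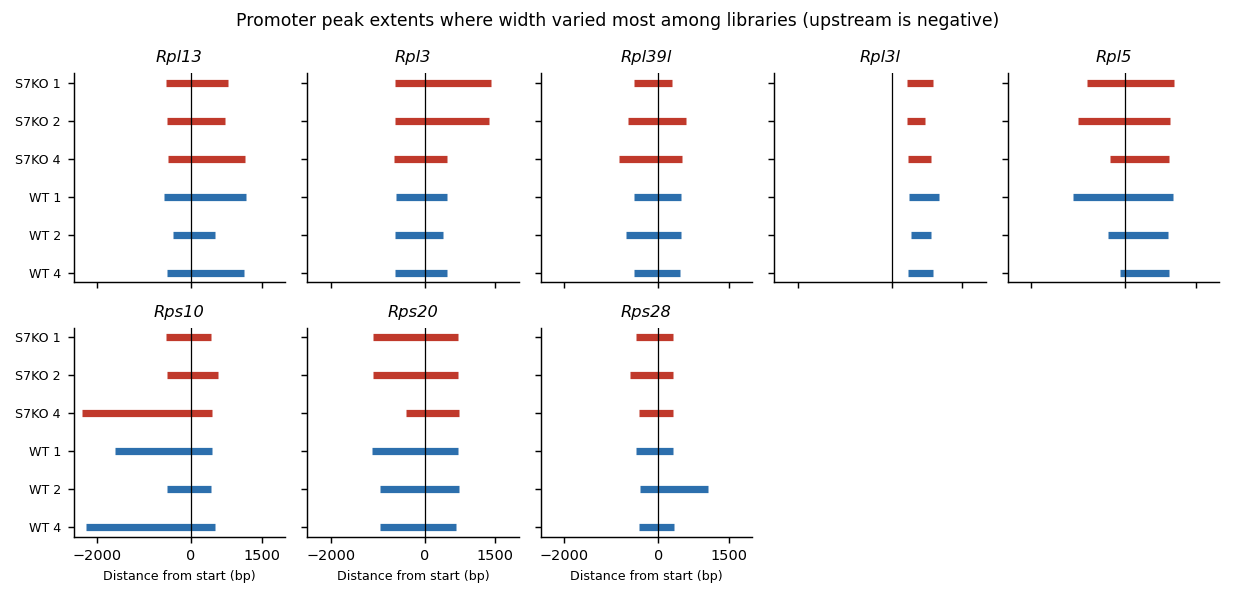
Extent of the promoter peak in 6 libraries, in bp from the transcription start (upstream negative), for the 8 genes named in the text among those whose width varied by a factor over 1.5. Bars are red for S7KO and blue for WT; in Rpl3 the downstream edge moves in S7KO replicates 1 and 2, in Rps10 the upstream edge in 3 libraries, and Rpl3l lies wholly downstream.

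Rps7 and Rps21, also among the genes with the largest width differences, overlapped between genotypes. Rps7, a Diamond-Blackfan anaemia gene, had 1446, 1456 and 1349 bp in S7KO and 1377, 1104 and 1305 bp in WT. Rps21 had 1329, 1448 and 1347 bp in S7KO and 1469, 1343 and 1925 bp in WT. In Rps21 the difference rested on WT replicate 4, the widest of its 6 libraries.

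Rank gave no call among the members either. Of 15129 genes, 2 passed an adjusted p of 0.05 in limma on log2 rank (0.0132%), and none of the 80 members did. At an unadjusted p under 0.05 there were 1 member and 340 genes. The members' median rank averaged 3.23 ± 0.543% over the S7KO libraries and 3.52 ± 0.493% over the WT libraries (SD, n = 3 each), a difference of -0.29 points that was smaller than either spread and ran from -0.559 without S7KO replicate 1 to -0.0162 without S7KO replicate 4. Every S7KO library ranked weaker than every WT library in 0 members, compared with 1.3% of all genes, and stronger in 3 members, compared with 5.06%. The 3 genes were Rpl13a, Rpl36a and Rps21. Rps21 ranked at 0.463%, 0.651% and 0.555% in S7KO and at 0.956%, 0.687% and 0.961% in WT. Its log2 rank was lower by 0.64 in S7KO, that is, stronger (SE 0.24), and it was the 1 member with an unadjusted p under 0.05. Rpl13a ranged from 2.56% to 2.84% in S7KO and from 3.04% to 3.75% in WT, and Rpl36a from 4.41% to 4.70% and from 4.82% to 5.83%. The median SE of the members' log2 rank differences was 0.28.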

How the data were processed

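Per the labels and the study's methods, the authors trimmed reads with Trim Galore 0.6.6, aligned them to mm10 with Bowtie2 2.4.4.1, kept uniquely mapped, non-duplicate reads, shifted Tn5 ends, kept fragments within a length range and called broad peaks per library with MACS2 2.2.5. Reads that match a processed pseudogene equally well may therefore have been lost before peak calling, which was not tested. The deposited lists give a display score (not used), a fold enrichment, which is the ratio of pileup to local background, and the −log10 of p and q of each peak, as the authors' caller wrote them. The largest deposited q was 0.0983. Depth is not given, and its relative value was solved from fold enrichment and −log10 p of narrow peaks. The number of libraries limits precision.

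Genes came from RefSeq GRCm38.p6. Starts came from its promoter table (62 members) or the gene record's 5′ end (20 members), a choice made after seeing that several records begin upstream of the curated start. The record's end for all genes was an added alternative. The peak nearest to a start within 1 kb was taken. Rps4l is a pseudogene in RefSeq and was left out, and Rpl32l entered.

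Log2 width and log2 percent rank by −log10 q were tested with limma 3.58.1 (R 4.3.3, two-sided, Benjamini-Hochberg over 15129 genes), tested on simulated data. Named were the l paralogs and parents, members lacking a peak, the stalk genes and Rpsa, the 5 widest, narrowest, most increased and most decreased, and the 3 strongest and weakest, with others added where a pattern or count singled them out. Some genes that this rule names are not reported here. Members, lists and rules were chosen with earlier results of these data known. The study speaks of 3 independent biological replicates per group, without saying which animals gave which library, so p-values measure the spread between these libraries.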

Additional observations from a re-analysis of the deposited data

How the results depend on the processing

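Over 174 alternatives to 13 results, 151 stayed within the spread between replicates or within 1.5 times the reported count and 23 did not. The members with a peak in all libraries numbered from 78, when the peak had to cover the start, to 82 within 3 kb. The rank of l paralogs behind their parents was 9.23 percentage points when the peak had to cover the start, 11.5 with −log10 q of at least 3 and 10.8 when each list was cut to the same number of peaks, and each of these settings left out Rpl3l. It was 18.3 with rank by fold enrichment, an alternative chosen after seeing the data, although 3 of 5 pairs changed order, and ranged from 19.5 to 21.1 when 1 library was left out. The 18.3 included Rpl3l, with a mean rank by fold enrichment of 95.3% compared with 6.44% for Rpl3. Members called for width ranged from 0 to 1 over the fits without 1 library. The 1 was Rpl3 without S7KO replicate 4, a fit that called 43 genes, and the cause was not tested. Members called for rank stayed at 0. The members' median width difference ranged from -14.6 bp without WT replicate 2 to 42.2 bp without WT replicate 1. With 5 more ribosomal protein genes added, 5 of 85 rather than 2 of 80 were wider in every S7KO library. The share over all genes was 6.87%.

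Over all genes, 17 were called for width and from 12 to 51 without 1 library. For rank, 2 were called and from 1 to 5 without 1 library, and 0 when rank was by fold enrichment, with 462 at an unadjusted p under 0.05. The numbers 1, 2 and 4 were checked as a pairing. Deviations of same-numbered libraries correlated at 0.108, -0.0111 and 0.114 in width and at 0.0686, 0.0179 and 0.335 in rank. The cross pairs of replicates 1 and 4 gave -0.126 and -0.109 in width and -0.337 and -0.0604 in rank. Deviations were taken from the genotype means, so those within a genotype cancel out for each gene. Negative cross pairs therefore follow in part from the same-numbered values and are no separate contrast. In rank, S7KO replicate 1 correlated more with WT replicate 2, at 0.249, than with WT replicate 1. Whether same-numbered libraries share more than the number was not tested. With the replicate block 0 members were called for width or rank, 0 genes were called for width, compared with 480 at an unadjusted p under 0.05, and 3 for rank. In width every library but S7KO replicate 2 and WT replicate 2 correlated best with its own number. WT replicate 2, the shallowest library, limits what narrow or missing calls can show.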
